A study of Mus musculus with 12 samples.

Results

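The genes of cholesterol synthesis and transport were followed by bulk RNA sequencing of the lateral septum, a nucleus of the mouse forebrain that bears on mood and pain. The set holds 29 genes, chosen by symbol for textbook roles in the pathway, out of 54532 in the authors' expression table. It comprises 18 enzymes of synthesis, 5 regulators, 3 genes of efflux and turnover and 3 of transport inside the cell. At day 3, 6 libraries came from wild-type mice given CFA, read here as complete Freund's adjuvant, an emulsion used in pain research to set up lasting local inflammation. The other 6 came from wild-type mice given saline. No label says whether each library came from a separate animal, so a p-value here reflects only the spread among these libraries, part of which may be technical. Strain, sex and age are not given in the labels, and whole tissue was sequenced, so that fewer cells of a type and less RNA per cell cannot be told apart.

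Brain cells make nearly all of their own cholesterol, because lipoproteins of the blood do not cross the blood-brain barrier. The mevalonate arm builds isoprenoid units from acetyl-CoA, and the sterol arm joins and closes them into lanosterol and trims that to cholesterol. When membrane sterol is low, SCAP carries SREBP transcription factors to the Golgi to be activated and they turn on the genes of synthesis. INSIG proteins hold the complex back when sterol is plentiful. In the adult brain oligodendrocytes and astrocytes are the main producers, and neurons remove surplus cholesterol by hydroxylating it with CYP46A1.

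None of the 28 tested genes of the set passed the test between CFA and saline libraries. Values were FPKM, in which fragments of a gene are divided by its length and by the library's reads, and the test was limma on log2(FPKM + 1) with Benjamini-Hochberg adjustment over all 13345 genes that had at least 1 FPKM in at least 6 libraries. Of the 29 genes 28 passed that filter, Fdps being the exception. Of the 28, 0 passed the threshold of 0.05, where 0.0300% of all tested genes did, and the lowest adjusted p was 0.663. At an unadjusted p under 0.05 there were 0 of 28, against 7.67% of all tested genes, a share that includes 4.56% lower in CFA. The CFA and saline libraries overlapped for all 28 tested genes, while they did not overlap for 0.495% of all tested genes.

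The estimates were small and mostly negative. Log2 fold changes, CFA minus saline, ran between -0.23 and 0.09 with a median of -0.03, beside a median of -0.00427 over all tested genes. They were below 0 for 23 of the 28 genes, against 52.0% of all tested genes. The sign count depended on the scaling, on single libraries and on covariates. Expressed as TPM, 13 of 28 were negative, against 35.2% of all tested genes, and the members' median was 0.00860. Without CFA 1, 18 of 28 were negative. With the mean of pan-neuronal markers as a covariate 16 were, as with that of striatal markers, the last added after seeing the data. Without saline 3 and saline 5 the count was 24. For these fits the share over all tested genes was not counted. Each 95% interval of the limma fit holds for 1 gene alone, without allowance for the 28 genes looked at. It rests on the spread among these libraries and on the log2(FPKM + 1) scale. For 26 of 28 genes the whole interval lay within 0.3 of 0 on the log2 scale, as it did for 10223 of all 13345 tested genes. The lowest bound of any gene was -0.47, a ratio of 0.724 on the FPKM + 1 scale, and the highest was 0.29, a ratio of 1.22.

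**Figure D1:**
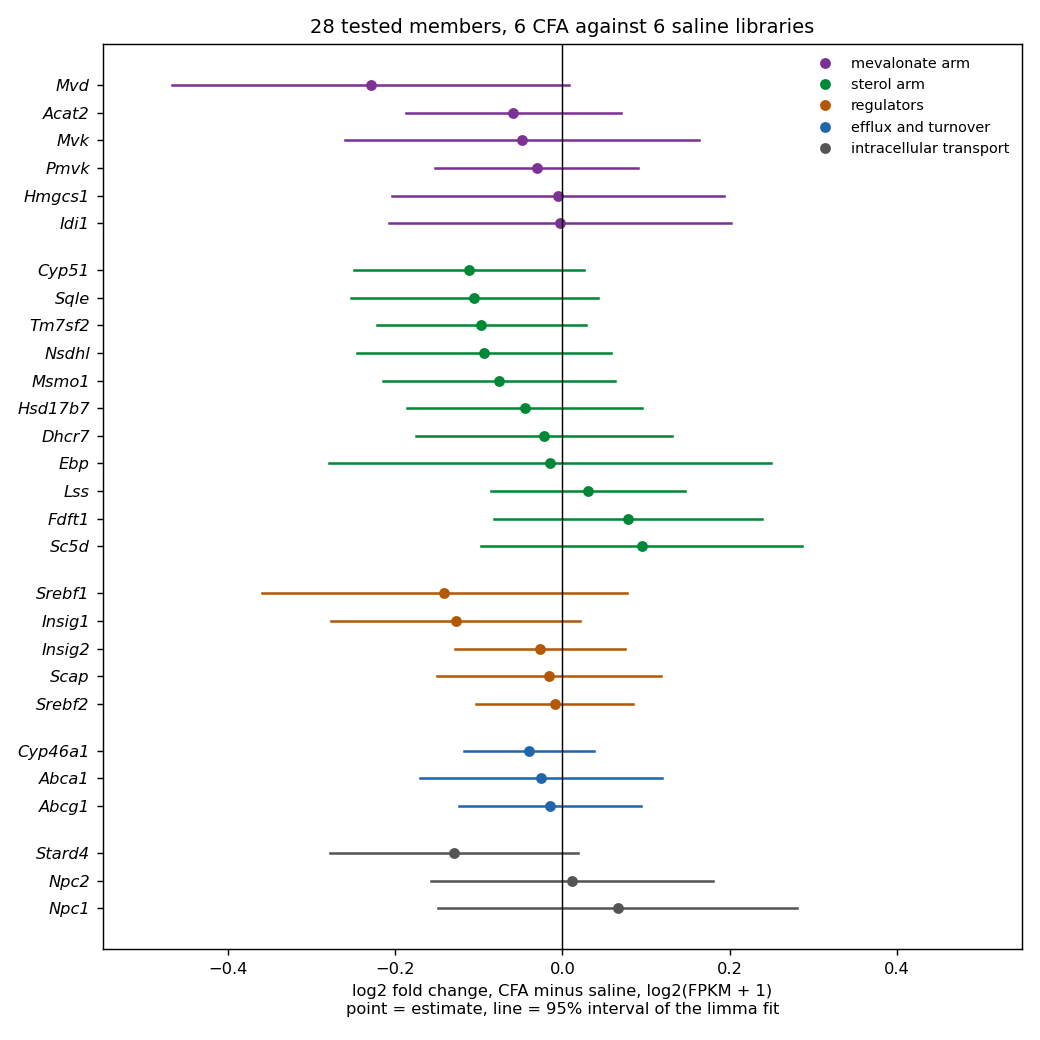
Log2 fold change of each of the 28 tested genes, as CFA minus saline in log2(FPKM + 1) units (horizontal axis), with its 95% interval from limma; genes are grouped by role and coloured by role. All 28 intervals include 0, and Mvd at -0.23 lies farthest from it.

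Levels differed far more between genes than between groups. On the FPKM scale, which is per length, Cyp46a1 was highest with a mean of 45.9 over the 12 libraries, followed by Hmgcs1 with 45.8 and Srebf2 with 35.5. Cyp46a1 and Hmgcs1 did not differ beyond their spread, while every library of Srebf2 lay below every library of Cyp46a1. The lowest tested gene was Tm7sf2 with 1.86 FPKM. Within a group the coefficient of variation, the SD as a percentage of the mean, was 2.33% at its lowest and 20.4% at its highest over the tested genes, with a median of 9.22%.

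**Figure D2:**
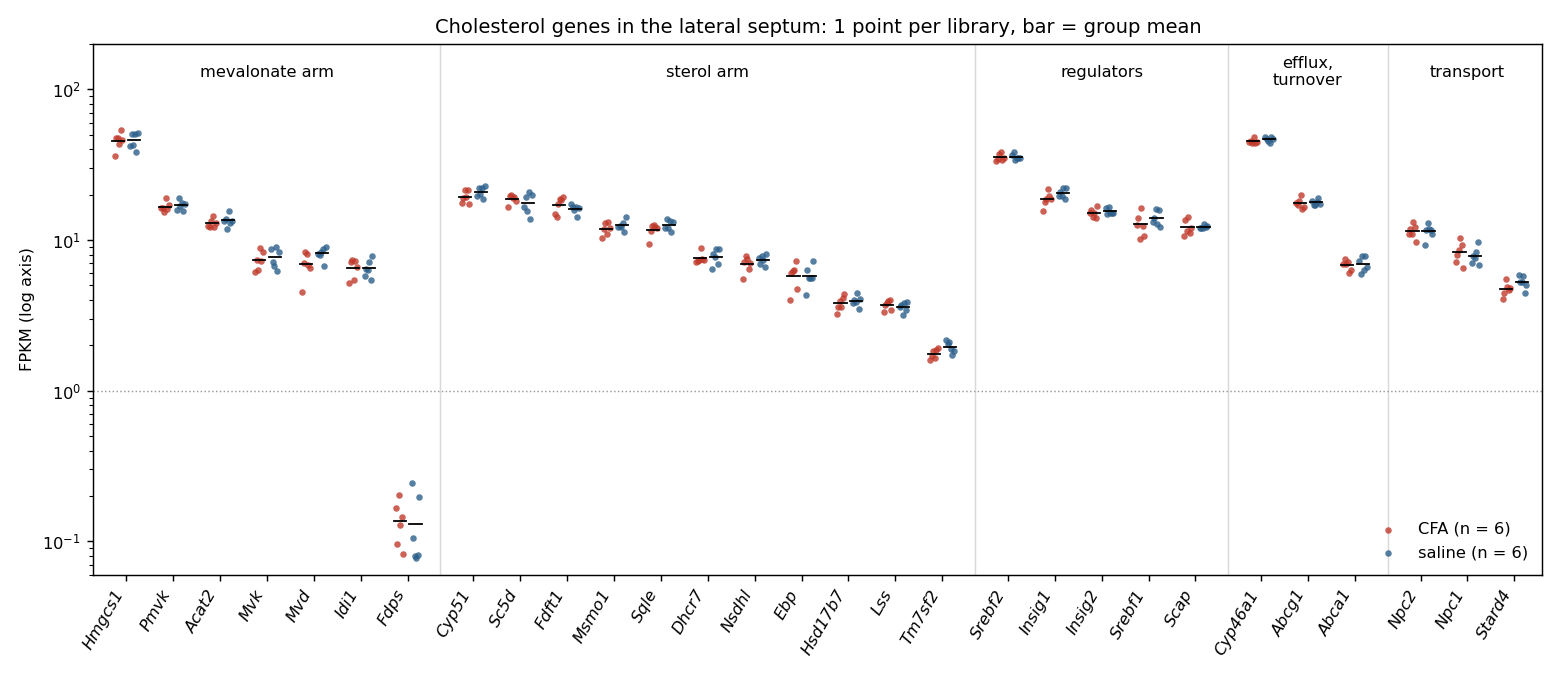
FPKM of all 29 genes in each library on a log axis, CFA (red) left of saline (blue) for each gene, with 1 point per library and a bar at the group mean, n = 6 each. The dotted line marks the filter of 1 FPKM; the points of the 2 groups overlap for each gene, and Fdps lies below the line in all 12 libraries.

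In the mevalonate arm, all 6 tested enzymes had negative estimates (3 of 6 as TPM), with a median of -0.04. Mvd, the decarboxylase that makes isopentenyl diphosphate (chromosome 8, 122433601 to 122443422, minus strand), had the smallest p of the set. Its lowest, median and highest values were 4.54, 6.90 and 8.35 FPKM in CFA libraries, against 6.76, 8.20 and 9.04 FPKM in saline libraries. Of the CFA libraries 5 lay below the saline median and 2, among them CFA 1 as the lowest of all 12, lay below every saline library. Mvd averaged 6.88 ± 1.37 FPKM in CFA and 8.14 ± 0.780 FPKM in saline (SD, n = 6 each), with a log2 fold change of -0.23 (SE 0.11, 95% interval -0.47 to 0.01). That difference did not exceed the spread of the libraries by limma (adjusted p = 0.663) or by a two-sided exact permutation test over all ways to assign 6 of the 12 libraries (p = 0.0844). Without CFA 1 the estimate for Mvd was -0.13. Over all alternative fits it ran between -0.28, without CFA 3, and -0.09, with the pan-neuronal marker mean as a covariate.

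Acat2, the cytosolic thiolase that starts the arm, had 12.1, 12.7 and 14.4 FPKM as lowest, median and highest in CFA, against 11.9, 13.4 and 15.6 FPKM in saline. The saline libraries covered the whole CFA range (log2 fold change -0.06, SE 0.06, limma adjusted p = 0.858, exact permutation p = 0.366). Of the 31-base words in Acat2 transcripts, 43.7% also occur in its neighbour copy Acat3, which had 1.39 FPKM, so how the authors assigned shared reads can affect this value. Hmgcs1, the HMG-CoA synthase and the most abundant enzyme of the arm, averaged 45.7 ± 5.66 FPKM in CFA and 45.9 ± 5.51 FPKM in saline (SD, n = 6 each; log2 fold change -0.01). Mvk and Pmvk, the kinases that phosphorylate mevalonate in sequence, had -0.05 and -0.03, and Idi1, the isomerase of isopentenyl diphosphate, had -0.00338. Fdps, the farnesyl diphosphate synthase, was measured at between 0.0830 and 0.202 FPKM in CFA and between 0.0777 and 0.242 FPKM in saline, or at most 37 reads in a library. Of its words 27.9% are shared with other gene models, among them Gm43738 at 0 FPKM and Gm3571 at 3.28 FPKM. Gm43738 also overlaps Fdps on the same strand, so the level of Fdps is uncertain.

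In the sterol arm 8 of the 11 enzymes had negative estimates and 3 positive ones (6 and 5 as TPM), with a median of -0.05. Cyp51, the lanosterol demethylase, had 17.4, 19.1 and 21.4 FPKM as lowest, median and highest in CFA, against 18.8, 21.2 and 22.8 FPKM in saline. Although 2 CFA libraries lay below every saline library, the other 4 were inside the saline range. The log2 fold change of Cyp51 was -0.11 (SE 0.06, limma adjusted p = 0.734, exact permutation p = 0.121). Its gene overlaps Akap9 on the other strand, at 8.37 FPKM, and whether counting used the strand is not given in the sources used here.

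Tm7sf2, a sterol reductase that acts after demethylation, had 1.59, 1.77 and 1.93 FPKM in CFA and 1.73, 1.96 and 2.17 FPKM in saline, as lowest, median and highest. All 6 CFA libraries lay below the saline median, but 3 of them lay within the saline range (log2 fold change -0.10, SE 0.06, limma adjusted p = 0.752, exact permutation p = 0.0628). Sqle, the squalene epoxidase and a rate-limiting step, was also below the saline median in all 6 CFA libraries, with a mean of 11.7 ± 1.16 FPKM in CFA and 12.6 ± 1.00 FPKM in saline (SD, n = 6 each). Sqle had a log2 fold change of -0.11 (SE 0.07, limma adjusted p = 0.768), and -0.05 without CFA 1. Tm7sf2 and Sqle were the only members with all 6 CFA libraries under the saline median. Words of 31 bases shared with other gene models also made up 12.9% of the total for Tm7sf2, 18.8% for Idi1 and 14.3% for Fdft1. On the same strand Tm7sf2 overlaps Vps51, at 0.206 FPKM, and Gm28374, at 0 FPKM, so the level of Tm7sf2 is uncertain.

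Of the other enzymes of the arm, the decarboxylating dehydrogenase Nsdhl had -0.09 and the methylsterol oxidase Msmo1 had -0.08. The ketosterol reductase Hsd17b7 had -0.05, and both the final reductase Dhcr7 and the sterol isomerase Ebp had -0.02. Positive estimates belonged to Sc5d, the sterol desaturase, with 0.09, to Fdft1, the squalene synthase, with 0.08, and to Lss, the lanosterol synthase, with 0.03. Sc5d averaged 18.8 ± 1.27 FPKM in CFA and 17.6 ± 2.77 FPKM in saline (SD, n = 6 each), the spread in saline being wider than the difference. Fdft1 lay above every saline library in 3 CFA libraries and below every saline library in 1. Fdft1 overlaps the highly expressed Ctsb, at 85.1 FPKM, on the other strand. Adjusted p-values for these 8 enzymes were 0.795 or higher.

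The 5 regulators all had negative estimates (2 of 5 as TPM), with a median of -0.03. Srebf2, the factor that drives most genes of synthesis, had 33.7, 34.8 and 38.2 FPKM as lowest, median and highest in CFA, against 33.8, 34.9 and 38.4 FPKM in saline. The ranges nearly coincided, and the estimate of -0.01 had a narrow interval, from -0.10 to 0.08 (SE 0.04, limma adjusted p = 0.978, exact permutation p = 0.768). Srebf1, whose products mainly drive fatty acid synthesis, had 10.2, 12.4 and 16.3 FPKM in CFA and 12.2, 13.6 and 16.0 FPKM in saline. Its CFA libraries spread to both sides, 2 below and 1 above every saline library (log2 fold change -0.14, SE 0.10, limma adjusted p = 0.780, exact permutation p = 0.240). Srebf1 overlaps Rai1, at 14.0 FPKM, on the other strand.

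Insig1, the retention protein that is itself an SREBP target, had 15.6, 18.7 and 22.0 FPKM as lowest, median and highest in CFA, against 18.7, 20.3 and 22.1 FPKM in saline. Below every saline library lay 3 CFA libraries, CFA 1 lowest, and the other 3 were within the saline range. Insig1 had a log2 fold change of -0.13 (SE 0.07, limma adjusted p = 0.714, exact permutation p = 0.0996), and -0.08 without CFA 1. Insig2, its relative, had -0.03.

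Scap, the escort of the SREBPs, had equal group means with unequal spread. It averaged 12.2 ± 1.42 FPKM in CFA and 12.2 ± 0.286 FPKM in saline (SD, n = 6 each). Of the CFA libraries 4 lay below every saline library and 2 above every one, which left none inside the saline range. This gene was singled out after its values were seen, and the difference in spread was not tested. The SD was larger in CFA than in saline for 19 of the 28 genes, against 71.6% of all tested genes.

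Genes of efflux and turnover had estimates close to 0, all 3 negative as FPKM and 1 of 3 as TPM. Cyp46a1, the hydroxylase by which neurons turn over cholesterol, had 44.0, 44.6 and 48.2 FPKM as lowest, median and highest in CFA, against 43.8, 46.6 and 48.3 FPKM in saline. The CFA range lay inside the saline range, 5 of its 6 libraries being below the saline median (log2 fold change -0.04, SE 0.04, limma adjusted p = 0.844, exact permutation p = 0.186). Abca1, the transporter that loads cholesterol onto apolipoproteins and a target of liver X receptors, had 6.08, 6.94 and 7.46 FPKM in CFA, against 5.99, 6.95 and 7.82 FPKM in saline. Its CFA range too lay inside that of saline (log2 fold change -0.03, SE 0.07, limma adjusted p = 0.959, exact permutation p = 0.719). Abcg1, its partner in efflux, had -0.01.

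Among genes of transport inside the cell, Stard4, a cytosolic carrier of sterol and an SREBP target, had 4.06, 4.72 and 5.49 FPKM as lowest, median and highest in CFA, against 4.44, 5.24 and 5.82 FPKM in saline. Below the saline median lay 5 CFA libraries, 1 of them below every saline library (log2 fold change -0.13, SE 0.07, limma adjusted p = 0.703, exact permutation p = 0.0909). Npc1, the membrane protein that exports cholesterol from lysosomes, had 6.54, 8.27 and 10.3 FPKM in CFA, against 6.82, 7.66 and 9.68 FPKM in saline. Its CFA libraries reached beyond the saline range on both sides (log2 fold change 0.07, SE 0.10, limma adjusted p = 0.927, exact permutation p = 0.552), and the gene overlaps Rmc1, at 4.03 FPKM, on the other strand. Npc2, the soluble lysosomal protein that hands cholesterol to NPC1, had 0.01.

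Libraries differed from each other in the synthesis enzymes within both groups. In CFA 1, all 17 tested enzymes were below their CFA group mean and 13 were the lowest of the group, where 49.7% and 18.9% of all tested genes were. In saline 5, all 17 were below the saline mean and 13 were the lowest of that group, where 48.3% and 15.4% of all tested genes were. Summed over the 17 enzymes, CFA 1 had 175 FPKM beside a CFA median of 208, and saline 5 had 183 FPKM beside a saline median of 210. So a low library was found in each group, and the sums overlapped, at 175 to 219 FPKM in CFA and 183 to 228 FPKM in saline. The highest sum belonged to saline 6, which held the top value of its group for 9 of the 17. Without CFA 1 the median estimate of the 17 enzymes was -0.00865, against -0.05 with all libraries, and without saline 5 it was -0.07.

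The high library for regulators and transport genes was CFA 4, which was high in other roles too. CFA 4 held the highest CFA value for 4 of the 5 regulators, namely Srebf2, Srebf1, Scap and Insig1, and their sum was 106 FPKM beside a CFA median of 92.4. CFA 4 was also highest of all 12 libraries for 2 of the 3 transport genes, Npc1 and Npc2. Among genes of efflux and turnover it held the highest CFA value for 2 of 3. For the synthesis enzymes it did so for 5 of 17, as many as CFA 3. CFA 4 held the highest CFA value for 24.9% of all tested genes, the largest such share among the CFA libraries. It also held the lowest CFA value for 24.2% of them, again the largest share, so over all genes it was extreme in both directions.

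Markers of other cell types moved between libraries as well. The 12 oligodendrocyte markers summed to 1284 FPKM in CFA 1, the lowest CFA library, with all 12 below the CFA mean. In saline 5, the other library with low synthesis enzymes, they summed to 2518 FPKM, the highest saline value, with 0 of 12 below the saline mean. The lowest sum of all 12 libraries, 964 FPKM, was in saline 1, where 12 of the 17 enzymes were below the saline mean and 1 was lowest of all 12. The 8 striatal markers, from the tissue beside the septum, summed to 271 FPKM in CFA 1, their highest library, beside a CFA median of 121. In CFA 6, the next highest, they summed to 204 FPKM, while 6 of the 17 enzymes were below the CFA mean. In saline 5 they summed to 105 FPKM, beside a saline median of 97.8. The median estimate of the 17 enzymes was -0.05 in the main fit and -0.05 with the oligodendrocyte marker mean as a covariate. It was -0.01 with the pan-neuronal mean and -0.03 with the striatal mean, the last added after seeing the data. The choroid plexus markers Ttr and Clic6 summed to 2293 FPKM in saline 3 and 717 FPKM in saline 5, beside a saline median of 48.7. In CFA 1 they summed to 23.8 FPKM, beside a CFA median of 24.4. In saline 3, 14 of the 17 enzymes were below the saline mean and 2 were lowest of the group. Without saline 3 and saline 5 the median estimate of the 17 enzymes was -0.09. The part of these cell types in the low values of CFA 1 and saline 5 was not tested.

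**Figure D3:**
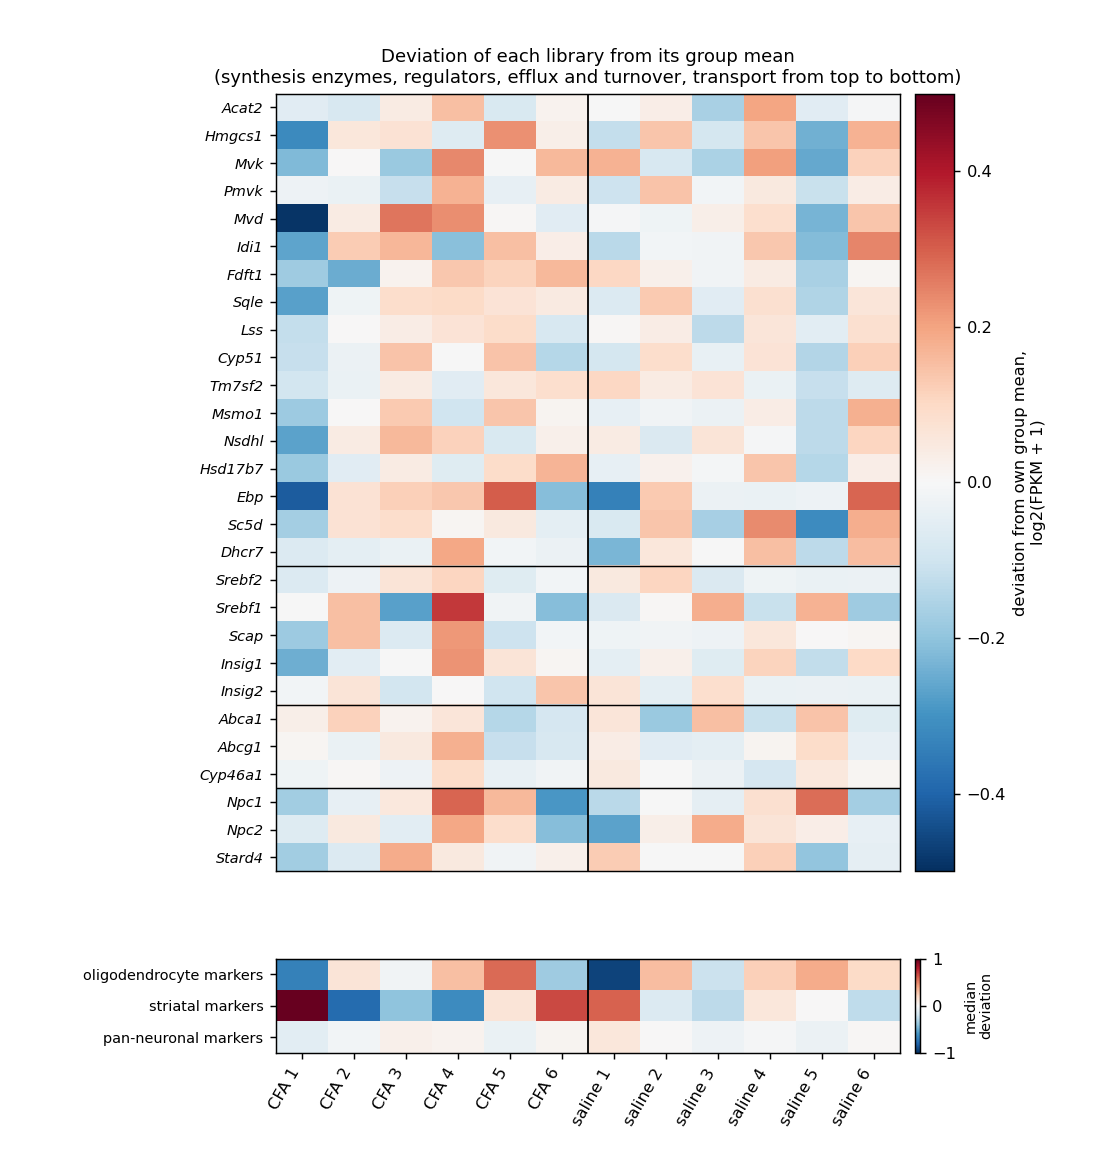
Colour gives each library's deviation from its own group mean on the log2(FPKM + 1) scale for the 28 tested genes (rows, by role) in CFA 1 to 6 and saline 1 to 6 (columns); the lower strip gives the median deviation of 3 marker lists, whose colour scale ends at 1. CFA 1 and saline 5 are blue for all 17 synthesis enzymes at the top, while the oligodendrocyte markers are low in CFA 1 and high in saline 5.

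Because these enzymes share SREBP as a regulator, the promoters of 3 of the genes are shown, with letters that match motifs in capitals. They come from RefSeq windows of GRCm38.p6 that run from 250 bases before to 50 bases after the start of a gene, and 23 of the 29 genes had such a window. Hmgcs1 is shown as the most abundant enzyme of synthesis and the 1 gene with a sterol element match, Mvd for its smallest p, and Insig1 as the regulator with the smallest p. Each is the plus or minus strand as named, 5′ to 3′. Capitals mark TCACNCCAC (a form of the sterol regulatory element that SREBP binds), CCAAT (the core of the NF-Y site) and GGGCGG (the core of the Sp1 site), each searched on both strands, so that their reverse complements ATTGG and CCGCCC are in capitals too. No matches overlapped in the stretches shown.
Hmgcs1 (chr13:119690101-119690350, plus strand, the 250 bases before the start): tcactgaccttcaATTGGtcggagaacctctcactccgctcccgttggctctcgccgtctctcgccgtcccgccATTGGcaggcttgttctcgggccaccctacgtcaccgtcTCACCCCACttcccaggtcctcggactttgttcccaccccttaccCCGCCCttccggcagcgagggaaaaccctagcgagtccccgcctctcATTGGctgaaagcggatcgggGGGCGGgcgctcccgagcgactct
Mvd (chr8:122443423-122443672, minus strand, the 250 bases before the start): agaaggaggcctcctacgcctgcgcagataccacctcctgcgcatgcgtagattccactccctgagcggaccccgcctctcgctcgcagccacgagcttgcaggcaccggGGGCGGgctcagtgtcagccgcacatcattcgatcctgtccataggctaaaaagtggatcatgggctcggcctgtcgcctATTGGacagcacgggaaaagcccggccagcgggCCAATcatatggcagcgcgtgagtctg
Insig1 (chr5:28071162-28071361, plus strand, the first 200 bases of the window): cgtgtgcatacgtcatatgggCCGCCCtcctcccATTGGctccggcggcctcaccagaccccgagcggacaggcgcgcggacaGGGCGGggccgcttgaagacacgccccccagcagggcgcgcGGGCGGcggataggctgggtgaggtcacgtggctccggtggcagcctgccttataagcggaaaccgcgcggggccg

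In Hmgcs1 the sterol element match begins at position -137 relative to the start, between CCAAT matches on either side. TCACNCCAC was found in 1 of the 23 genes, against 1.44% of the 27025 genes with a window. CCAAT was found in 20 of the 23, or 87.0%, against 41.1% of all genes, and GGGCGG in 22 of 23, or 95.7%, against 38.2%. Of the synthesis enzymes with a window, 14 of 15 held CCAAT and 14 of 15 held GGGCGG. These are letter matches in a short window, described without a test. The 27025 genes were not limited to expressed ones, and a gene with more than 1 window counted if any of them matched. No comparison with expressed genes alone was made.

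Other genes of cholesterol and lipid handling, 52 in all and 49 of them tested, gave 0 calls, beside the 0.0300% of all tested genes that passed. At an unadjusted p under 0.05 there was 1, against 7.67% of all tested genes, and it was Fads2, the desaturase of polyunsaturated fatty acids. Fads2 had 74.1, 89.3 and 112 FPKM as lowest, median and highest in CFA, against 98.5, 101 and 111 FPKM in saline. Below every saline library lay 5 CFA libraries, while 1, CFA 4, lay above every one. The log2 fold change of Fads2 was -0.18 (SE 0.08, limma adjusted p = 0.640, exact permutation p = 0.0606), with a range of -0.24 (without CFA 4) to -0.12 (without CFA 6) when 1 library was left out. With the striatal marker mean as a covariate, an alternative added after seeing the data, the estimate for Fads2 was -0.10. Of the 9 tested fatty acid genes that SREBP drives, 7 had negative estimates (7 as TPM), including the desaturases Scd1 (-0.13) and Fads1 (-0.08) and Acly (-0.06), which makes cytosolic acetyl-CoA.

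The other 3 enzymes of synthesis had negative estimates (2 of 3 as TPM), and 0 were called. Ggps1, which makes geranylgeranyl diphosphate, averaged 12.2 ± 1.36 FPKM in CFA and 12.8 ± 0.492 FPKM in saline (SD, n = 6 each; log2 fold change -0.07, limma adjusted p = 0.854). Of the 8 genes that process SREBP or degrade proteins when sterol is high, 7 had positive estimates (7 as TPM), all 0.13 or below. Erlin1 had 0.13, Sec24d of the vesicle coat had 0.05 and the protease gene Mbtps2 had 0.03.

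Of 6 genes of lipoprotein uptake, 4 had negative and 2 positive estimates (3 and 3 as TPM). The receptor genes Lrp1 (-0.09), Lrp8 (0.08) and Scarb1 (-0.04) had limma adjusted p-values of 0.828 or higher. Among 12 genes of lipoproteins, efflux and esterification, 10 had negative estimates (9 as TPM), among them the liver X receptor gene Nr1h2 (-0.07), the transporter gene Abcg4 (-0.07) and the esterifying enzyme gene Soat1 (-0.06), while the lipocalin gene Apod had 0.19.

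The estimate farthest from 0 among all these genes was that of Stard5, a sterol-binding protein, at 0.44 (SE 0.31, limma adjusted p = 0.779). Stard5 had 0.508, 1.76 and 4.39 FPKM as lowest, median and highest in CFA and 0.618, 1.12 and 2.58 FPKM in saline, so that the CFA libraries covered the whole saline range. With 1 library left out the estimate for Stard5 ran between 0.26 (without CFA 1 or CFA 6) and 0.63 (without CFA 2). It was -0.00604 with the striatal marker mean as a covariate and 0.57 with the oligodendrocyte marker mean. Scp2 (-0.04), Osbp (0.04) and Osbpl2 (-0.04), which also carry sterols, were close to 0. The oxysterol enzymes Cyp7b1 (-0.13) and Cyp27a1 (-0.07) were the 2 tested of 4.

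**Figure D4:**
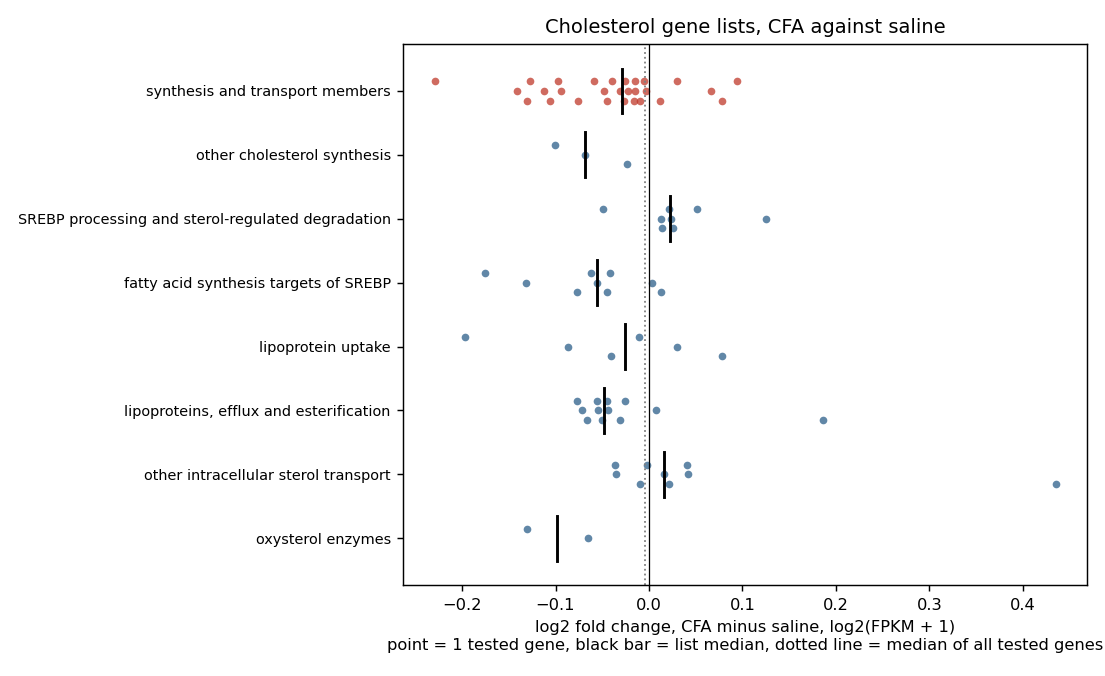
Log2 fold change, CFA minus saline, of each tested gene (points) in the cholesterol set (top, red) and in 7 other lists of the pathway (blue), with a black bar at each list's median and a dotted line at the median of all tested genes, -0.00427. The list medians lie close to 0, and Stard5 at 0.44 and Mvd at -0.23 are the extremes.

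Markers of cell types are given as context for these values. All 10 genes listed as lateral septum neuron markers, among them Slc32a1 and Prdm16, were present, and whether they are specific to that nucleus was not tested. Their summed levels were 549 to 723 FPKM in CFA and 630 to 740 FPKM in saline, with all 10 estimates negative (median -0.13). Pan-neuronal markers had 10 of 10 negative estimates (7 of 10 as TPM, median -0.08), oligodendrocyte markers 11 of 12 positive (median 0.15) and striatal markers 8 of 8 positive (median 0.46), with 0 called in each list. Astrocyte markers, of the other main producer of cholesterol, summed to 702 to 841 FPKM in CFA and 802 to 860 FPKM in saline, with a median estimate of -0.02 (0.02 as TPM). Of 10 microglia markers 6 had positive and 4 negative estimates (7 and 3 as TPM), between -0.36 and 0.48. At an unadjusted p under 0.05 there were 4 higher and 2 lower, against 7.67% of all tested genes in either direction. The 1 called, where 0.0300% of all tested genes passed, was the protease gene Ctss, which rose by 0.48 on the log2 scale (limma adjusted p = 0.0304). The microglia list summed to 153 to 198 FPKM in CFA and 141 to 162 FPKM in saline. Erythroid markers summed to 78.9 to 668 FPKM in CFA and 157 to 333 FPKM in saline, endothelial markers to 63.2 to 76.5 FPKM in CFA and 65.7 to 79.6 FPKM in saline, and oligodendrocyte precursor markers to 37.5 to 52.3 FPKM in CFA and 36.9 to 51.2 FPKM in saline, with 0 called in these lists. Recovered depth was 33.6 to 39.2 M reads per library, and saline 3 and saline 5 carried choroid plexus RNA, with 2293 FPKM as the highest summed level of Ttr and Clic6 in saline, against 55.6 FPKM in CFA.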

How the data were processed

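RNA of the lateral septum was sequenced in 6 CFA and 6 saline libraries, grouped by the labels. Alignment used HISAT2 2.0.5 and mm10, per the submitters' processing notes, while the counter, strand setting and annotation were not given in the sources. The authors deposited FPKM per gene and library. FPKM times the deposited gene length gave whole reads (100% within 0.01 read). A further 6 columns of per-sample values matched no sample and were not used. Groups were compared two-sided with limma 3.58.1 (R 4.3.3) on log2(FPKM + 1), with a mean-variance trend, a filter of 1 FPKM in 6 libraries and Benjamini-Hochberg adjustment over 13345 genes. This scale understates changes of low genes. Exact permutation tests used every assignment of 6 of the 12 libraries. Named genes were the 2 with the smallest p in each role group plus Srebf2, up to 4 of each other list and up to 2 of each marker list. Some genes that this rule names are not reported here. The genes and lists were chosen with earlier results of these data known. Alternatives covered pseudocount, filter, scaling, variance model, voom on recovered reads, rank-sum test, replicate block, left-out libraries and covariates. The fit was tested on simulated data. Shared words of 31 bases were counted in GENCODE M21 transcripts. Other steps ran in Python 3.11.15 with numpy 2.4.6, pandas 2.3.3 and, for plots, matplotlib 3.10.9.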

Additional observations from a re-analysis of the deposited data

Results flagged for a closer look

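Among the 56 groups of 6 libraries (28 genes in CFA and in saline), 3 held a library whose gap to the nearest other library was too large a share of the group's range by Dixon's test. Chance flags about 1 in 20 independent groups. These groups share the same 12 libraries, so that rate cannot decide whether 3 flags are due to chance. Sqle was 9.46 FPKM in CFA 1, the lowest, with the next library at 11.4 (0.652 of the range). Dhcr7 was 8.81 FPKM in CFA 4, the highest, with the next at 7.50 (0.807 of the range). Cyp46a1 was 48.2 FPKM in CFA 4, the highest, with the next at 45.4 (0.664 of the range).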

How the results depend on the processing

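Over 30 alternatives, 0 members and 0 of the other cholesterol pathway genes were called, and the lowest adjusted p of any member was 0.245 (Insig1 without CFA 4, limma). The median log2 fold change of the members ran between -0.06 and 0.00860 (TPM). In the main fit, on all 12 libraries without a covariate or block, 0 members had an unadjusted p under 0.05. Of 28 members there were 4 without saline 3 and saline 5 (7.42% of all tested genes) and 3 with the oligodendrocyte marker mean as a covariate (8.98% of all), drawn from Cyp51, Insig1, Mvd and Stard4, and 1, Fdft1, with the pan-neuronal mean (6.67% of all). Leaving out 1 library gave 0 to 3, with 3 without CFA 3 (7.10% of all), 3 without CFA 4 (13.8%), 1 without CFA 5 (6.53%) and 3 without saline 5 (7.48%). Over all genes 4 were called, but 2 without a filter, 2 without the variance trend, 0 by the rank-sum test (whose smallest possible p, 0.00216, is too large to pass here, with 857 genes at an unadjusted p under 0.05), 1 with Xist and 1 with the pan-neuronal mean as a covariate. Left-out libraries gave 1 to 11, with 10 without CFA 1, 1 without CFA 6, 2 without saline 2, 11 without saline 3, 2 without saline 4 and 1 without saline 5. Added after seeing the data, leaving out CFA 1 and saline 1 gave 10, and the striatal mean as a covariate 12. The cause of these shifts was not tested. The replicate numbers were not taken to pair the libraries, since no label says so and same-numbered libraries correlated at only -0.0118 to 0.159, although 3 of 6 matched their own number best, a hint from the data and not from the design. With a replicate block 1 gene was called and 1 member, Mvd, had an unadjusted p under 0.05 (0.0423; 7.91% of all genes). The sign of 15 members, none beyond 0.09 in the main fit, changed under at least 1 alternative. Fdps had at most 37 reads in a library, and the part of depth in its level and in the intervals of other members was not tested.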

Other observations

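Cyp39a1, an oxysterol hydroxylase gene chosen after its values were seen and below the expression filter, had 0.751 to 1.15 FPKM in CFA, against 0.526 to 0.955 FPKM in saline. Above every saline library lay 4 CFA libraries (exact permutation p = 0.0303, two-sided, unadjusted).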
